A study of Drosophila melanogaster with 28 samples.

Results

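The genome-wide distribution of RNA polymerase II (Pol II) was profiled through its subunit Rpb3 by ChIP-seq in control Drosophila melanogaster embryos at stage 5, and every gene was ranked by its read density. The group held 2 of the 28 samples of the series, Ctrl replicates 1 and 2, and 16459 of the 17588 genes with a counted transcript were ranked. A gene was ranked through its transcript with the highest mean count, among transcripts that passed a minimum length and had over 10 reads summed over both libraries. The other 26 samples (knockdown embryos, earlier embryos, other antibodies and inputs) were not analysed here, and no input was subtracted. Embryos of the Ctrl group carried genotype t180 and came from crosses of a control line to a germline Gal4 driver, without the Domino knockdown. Stage 5 is the cellular blastoderm. Embryos were collected whole, with no sorting by sex or cell type stated, so that all cell types contribute to one value, and many cells with little Pol II on a gene cannot be told apart from a few cells with much.

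Pol II copies protein-coding genes and most small nuclear RNA genes, and Rpb3 is part of every Pol II molecule, whether it is held near the start of a gene, moving along it, or finishing. Early fly embryos live on RNA and protein laid down by the mother, and the zygotic genome comes into broad use around stage 5, during zygotic genome activation (ZGA). At that time the segmentation and dorsoventral genes draw the body plan, and the cellularisation genes drive the membranes between the nuclei.

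Replicate 1 held 12022490 reads and replicate 2 held 8326438 reads in ranked genes. Density is given as RPKM, the reads per kb of transcript span with introns, scaled to a total of 1000000 reads in ranked genes. The background of a library was the most common density of genes over 2000 nt long, 4.66 RPKM in replicate 1 and 4.23 RPKM in replicate 2, or 56.0 and 35.2 reads per kb. Fold over background is the summed density of both libraries over their summed background. Genes of at least 8-fold were called dense, genes of 2-fold up to 8-fold weak, and the rest at background. By this measure 1290 genes were dense (7.84% of all), 5801 were weak and 9368 were at background, so that 43.1% of all genes were bound at 2-fold or more. The call was the same in both libraries taken singly for 1147 dense, 5288 weak and 8995 background genes.

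**Figure D1:**
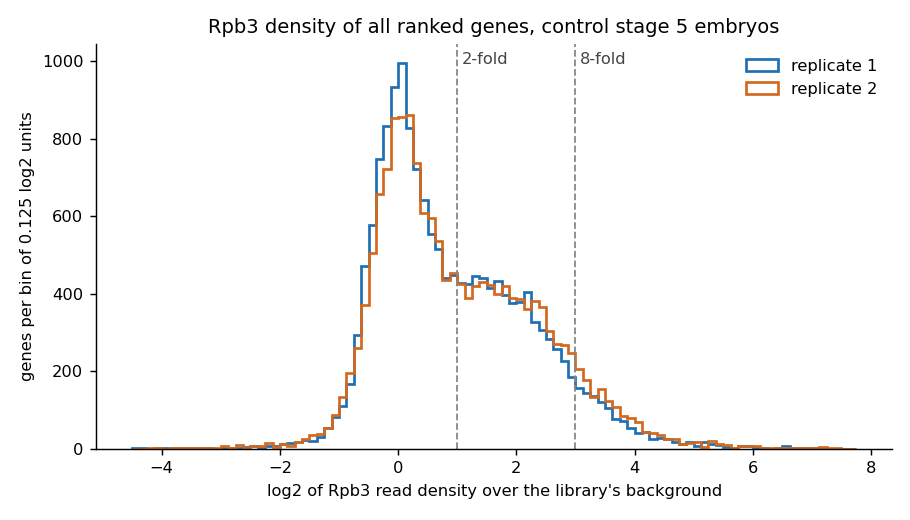
Number of genes (vertical axis) by log2 of Rpb3 density over background (horizontal axis) in Ctrl replicates 1 and 2, with dashed lines at 2-fold and 8-fold. In both libraries most genes form a peak near background with a shoulder to the right, and few genes lie beyond the 8-fold line, 1157 in replicate 1 and 1444 in replicate 2.

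The libraries ordered the genes alike. All 20 of the 20 densest genes of one library were among the 20 densest of the other, as were 94 of the 100 densest and 942 of the 1000 densest. Across the 16457 genes with reads in both libraries, which share the same annotation and spans, log2 densities correlated with Pearson's r = 0.970. The median absolute difference between replicates was 0.18 log2 units for dense genes and 0.18 for all genes. Relative to its own background, replicate 2 was higher than replicate 1 at 1208 of 1290 dense genes, and its share of reads above background was 57.4%, against 53.1% in replicate 1. The 2 libraries form a single group, and no test was made. At the edges of the classes, gbb (31.4 and 39.7 RPKM in replicates 1 and 2) lay just inside the dense class and pzg (34.8 and 36.2 RPKM) just outside it. Xport-B (8.22 and 9.56 RPKM) lay just inside the weak class and Lap1 (8.87 and 8.90 RPKM) just outside it.

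The 20 densest genes comprised 10 snRNA genes, 3 snoRNA genes, 2 other non-coding RNA genes and 5 protein-coding genes. The densest protein-coding gene was CG15125, with 575 and 594 RPKM in replicates 1 and 2, 132-fold over background, over a span that overlaps another gene. The 100 densest genes comprised 64 protein-coding genes, 16 snRNA genes, 7 snoRNA genes and 13 other non-coding RNA genes. Among protein-coding genes that overlap no other gene and had at least 100 reads on average, slam ranked first, with 512 and 505 RPKM in replicates 1 and 2, a mean of 509 ± 4.54 RPKM (SD, n = 2) and 114-fold over background. Its protein guides membrane growth between the nuclei during cellularisation. Sry-delta, which encodes a zinc finger transcription factor, had 425 and 431 RPKM, 96.3-fold over background. halo, whose product steers lipid droplet transport at cellularisation, had 275 and 285 RPKM. trbl, which encodes an inhibitor of the mitotic activator String, had 219 and 219 RPKM. Elba2, a subunit of an insulator-binding complex, had 260 and 267 RPKM. The values of the replicates lay close together at all of these genes.

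The remaining genes among the 20 were of several kinds. wech, which encodes a tripartite-motif protein, was the longest of them, with a span of 10971 nt and 258 and 267 RPKM. alphaTub84B, encoding alpha tubulin, had 228 and 232 RPKM, and Ppa, encoding an F-box protein, had 227 and 236 RPKM. GstD8, a glutathione transferase gene, had 210 and 205 RPKM. A group of genes known only by number (CG13427, CG15480, CG4440, CG18132, CG13465, CG10035, CG14561 and CG15908) ranged in fold over background between 76.7 for CG13427 and 46.3 for CG15908. His2B:CG33908 and His2B:CG33868 also entered the list, but they are near-identical copies of 1 histone gene and the reads of such copies cannot be assigned with certainty.

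**Figure D2:**
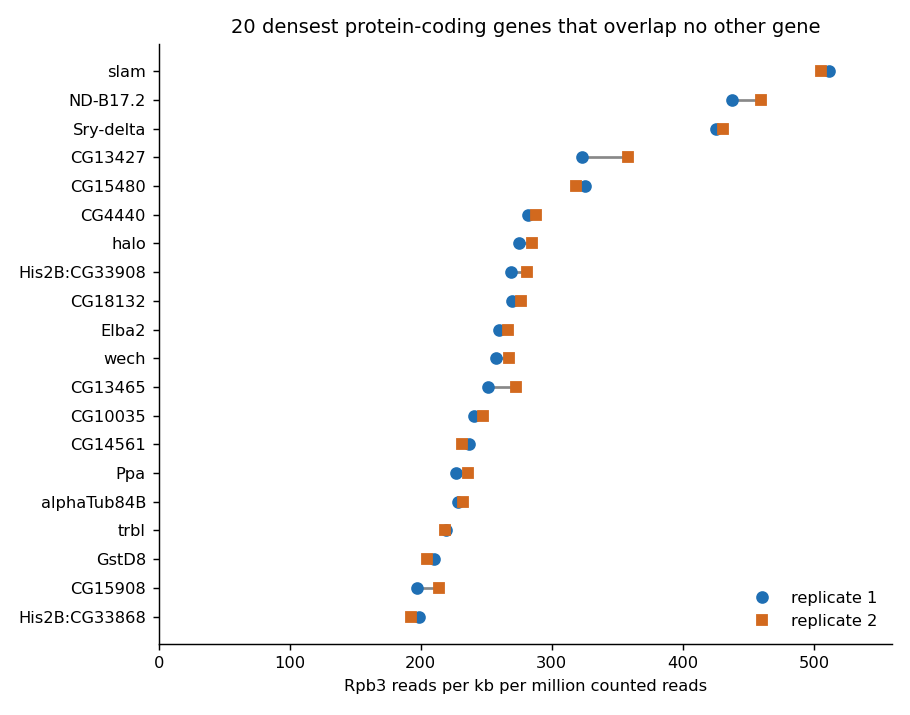
Rpb3 density (horizontal axis, RPKM) of the 20 densest protein-coding genes that overlap no other gene, with a circle for replicate 1 and a square for replicate 2. slam stands at the top with 512 and 505 RPKM, and the widest gap between replicates is that of CG13427, with 323 and 358 RPKM.

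Promoters of these densest genes often held the heptamer CAGGTAG, a TAGteam site bound by the pioneer factor Zelda. It was found on either strand between 250 bases before and 50 bases after the annotated start in 6 of the 20 genes, against 261 of 16131 promoters of all genes (1.62%). The following 3 promoters are shown because they belong to the densest genes of the 20 with a match, leaving out an arm whose sequence is not printed here. They run from 200 bases before to 20 bases after the annotated start on the strand of the gene (genome release dm6, sequence from the RefSeq assembly), with CAGGTAG or its reverse complement in capitals. CG15480 lies at chr2L:13225256-13225475, halo at chr2L:1518129-1518348 and CG13465 at chr3L:14944312-14944531, all on the minus strand.
CG15480: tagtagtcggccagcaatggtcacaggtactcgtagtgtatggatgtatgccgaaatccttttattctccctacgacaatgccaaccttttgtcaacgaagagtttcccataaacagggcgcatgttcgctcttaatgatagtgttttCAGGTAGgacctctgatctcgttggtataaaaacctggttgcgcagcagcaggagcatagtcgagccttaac
halo: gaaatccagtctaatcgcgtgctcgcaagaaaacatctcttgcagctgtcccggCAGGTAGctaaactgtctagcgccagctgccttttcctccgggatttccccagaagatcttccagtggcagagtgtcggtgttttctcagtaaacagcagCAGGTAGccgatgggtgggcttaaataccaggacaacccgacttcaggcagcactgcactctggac
CG13465: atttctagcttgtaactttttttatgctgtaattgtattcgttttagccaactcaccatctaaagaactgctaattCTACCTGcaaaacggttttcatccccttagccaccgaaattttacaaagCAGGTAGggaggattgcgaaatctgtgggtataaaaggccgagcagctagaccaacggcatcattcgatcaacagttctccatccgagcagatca
The match in CG15480 began 52 bases before the start. halo held 2 matches, at 146 and 46 bases before the start, and CG13465 held 2, at 124 and 75 bases before it. slam, the densest of the 20, held none in its window. A match is a description of the letters and was not tested as a binding site.

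Over all genes, TAGteam matches became more frequent with density. They stood in 28 of the 100 densest promoters (28%), in 84 of 1265 dense promoters (6.64%), in 85 of 5659 weak promoters and in 0.999% of 9207 promoters at background. Read the other way, 32.2% of the promoters with a match belonged to dense genes, against 7.44% of those without one. DRE (TATCGATA, the site of the factor Dref) and the core of Motif 1 (GGTCACAC, bound by M1BP), both found mostly at broadly used genes, had another distribution. DRE stood in 14.3% of dense, 14.2% of weak and 3.42% of background promoters, but in 6 of the 100 densest, against 8.05% of all. The Motif 1 core stood in 11.2% of dense, 12.5% of weak and 2.44% of background promoters, in 1 of the 100 densest and in 6.66% of all.

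The other motifs were unevenly spread, among them the TATA box and the initiator, which are motifs of tightly placed starts. A TATA box (TATAAA, between 40 and 20 bases before the start on the strand of the gene) was found in 17 of the 100 densest promoters, in 5.30% of dense, 2.93% of weak and 7.46% of background promoters, and in 5.70% of all. The initiator letters TCAGT within 10 bases of the start were found in 7.75% of dense, 6.50% of weak and 13.8% of background promoters, against 10.8% of all, in 15 of the 100 densest and in 37.8% of those of patterning genes. GAGAGAG, the site of GAGA factor, was found in 5.93% of dense, 3.92% of weak and 6.48% of background promoters, against 5.54% of all, and in 8 of the 100 densest. The E-box CAGCTG was found in 17.5%, 20.9% and 14.1% of these classes, against 16.7% of all, and in 18 of the 100 densest. It stood in 26.7% of housekeeping promoters and in 10.5% of those of late tissue genes. DRE, the Motif 1 core, GAGA and the E-box were searched on both strands in the same window as TAGteam, and no motif of these 7 contains another.

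**Figure D3:**
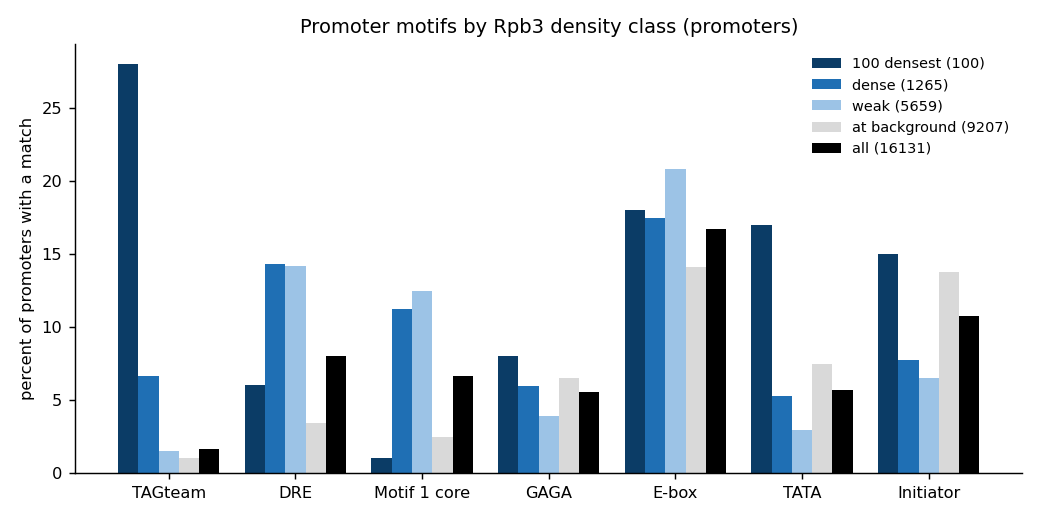
Percent of promoters with an exact match to 7 motifs (vertical axis), for the 100 densest genes, for dense, weak and background genes and for all genes, with the number of promoters in brackets. TAGteam matches stand in 28% of the 100 densest promoters and 1.62% of all, while DRE and Motif 1 core are near even between dense and weak promoters and low at background.

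Genes that pattern the embryo or build its cells were mostly bound. Of 83 ranked genes in 7 such classes, 40 were dense (48.2%, against 7.84% of all genes), 24 were weak and 19 were at background, and their median was 6.70-fold, against 1.60-fold over all genes. Within this group, TAGteam matches stood in 16 of 40 dense genes and in 3 of the 42 others with a promoter searched. The promoter searched was that of the counted transcript, which in long genes can start far upstream of a denser, shorter transcript. With starts of the densest transcripts instead, 23 of 82 patterning promoters held a match, against 19. The part of this choice in the split was not tested. Folds here are over the background of all genes. Over the lower background of the X (3.29 and 3.14 RPKM in replicates 1 and 2), X-linked members would stand higher.

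The cellularisation and cell cycle genes had the highest median, 49.1-fold, and all 8 were bound. Besides slam, halo and trbl, bnk, which restrains the contractile ring, had 291 and 294 RPKM in replicates 1 and 2. Z600, also called frühstart, an inhibitor of mitosis, had 213 and 222 RPKM. Sry-alpha, needed for the actin network of cellularisation, had 187 and 187 RPKM over a span that it shares with Sry-beta. stg, the mitotic phosphatase String, was weak at 30.5 and 29.1 RPKM. nullo, which keeps the furrows stable and is X-linked, was the lowest of the 8 at 25.8 and 24.7 RPKM, 5.68-fold over the background of all genes.

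All 9 pair-rule genes, which divide the embryo into segment primordia, were bound and 8 were dense, with a median of 29.5-fold. eve led with 193 and 196 RPKM in replicates 1 and 2, followed by ftz with 186 and 186 RPKM. Both encode homeodomain factors expressed in stripes. hry (hairy), a repressor, had 153 and 154 RPKM, and odd, encoding a zinc finger factor, had 149 and 146 RPKM. opa, a zinc finger gene active at the switch to later segment patterns, had 129 and 133 RPKM across a span of 17167 nt. slp1 reached 18.9-fold, prd 17.3-fold and run 11.2-fold. slp2, the neighbour and paralog of slp1, was the lowest at 15.0 and 16.2 RPKM, 3.51-fold.

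Of 14 gap and head gap genes, which set up the first broad domains, 8 were dense and 4 weak. hb led with 175 and 168 RPKM, and gt followed with 118 and 113 RPKM. kni had 101 and 102 RPKM, hkb 84.7 and 83.4 RPKM, tll 79.0 and 80.0 RPKM, and Kr 75.6 and 75.8 RPKM. These 6 encode transcription factors that act in the trunk or at the poles. The head genes followed, with croc at 10.7-fold, ems at 8.81-fold, btd at 7.99-fold, just under the dense threshold, and oc at 6.22-fold. btd and oc lie on the X, so that their calls depend on the background used. knrl (3.48-fold) and nub (3.16-fold) were weak, and pdm2 (1.96-fold) and cnc (1.55-fold) were at background by the chosen transcript.

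All 5 genes that count the X chromosomes for sex determination were dense, with a median of 17.4-fold. dpn, an autosomal repressor in this count, had 91.1 and 93.7 RPKM. The activators on the X followed, sisA with 83.3 and 82.5 RPKM, upd1 with 77.5 and 77.4 RPKM, and sc with 37.5 and 36.7 RPKM. Sxl, the switch gene that reads the count, had 75.3 and 72.5 RPKM.

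Of 26 dorsoventral genes, 9 were dense, 11 weak and 6 at background, with a median of 3.36-fold. The background calls depended on the transcript, since 25 of the 26 were bound over the densest transcript of each gene. sna, the mesoderm repressor, led with 108 and 106 RPKM. sog, which encodes an inhibitor of Dpp signalling, had 70.9 and 71.2 RPKM across 23258 nt, and rho, an activator of EGF receptor ligands, had 68.6 and 69.7 RPKM. brk, the repressor of Dpp targets, was at 11.9-fold. The T-box genes of the dorsal side differed, with Doc1 at 11.9-fold, Doc3 at 9.92-fold and Doc2 at 2.32-fold. tld, a protease that releases Dpp, was at 11.1-fold, mthl1 (mist), the receptor for Fog, at 9.10-fold and ind, a neural homeobox gene, at 8.68-fold. Ance was at 6.03-fold and scw, a Dpp partner ligand, at 6.35-fold. pnr, a GATA factor, was the lowest at 6.23 and 5.95 RPKM, 1.37-fold.

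Segment polarity and Hox genes, which hold or name the segments, carried less. Of 11 segment polarity genes, 3 were dense and 4 weak, with a median of 4.53-fold. ptc, the Hedgehog receptor, had 103 and 108 RPKM, nkd had 47.3 and 47.6 RPKM and ci, the Hedgehog effector, had 42.7 and 43.0 RPKM. en (4.53-fold) and wg (4.96-fold) were weak, while hh was at 1.86-fold and gsb-n at 0.90-fold. Of 10 genes in the Hox complexes, zen, a dorsal determinant that lost its Hox role, was the only dense one, with 104 and 104 RPKM, 23.4-fold. zen2 had 17.1 and 23.0 RPKM, and Ubx lay at the threshold with 9.03 and 8.80 RPKM over 77804 nt. Among the other 7, fold over background ranged between 1.85 for Antp and 1.01 for pb.

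**Figure D4:**
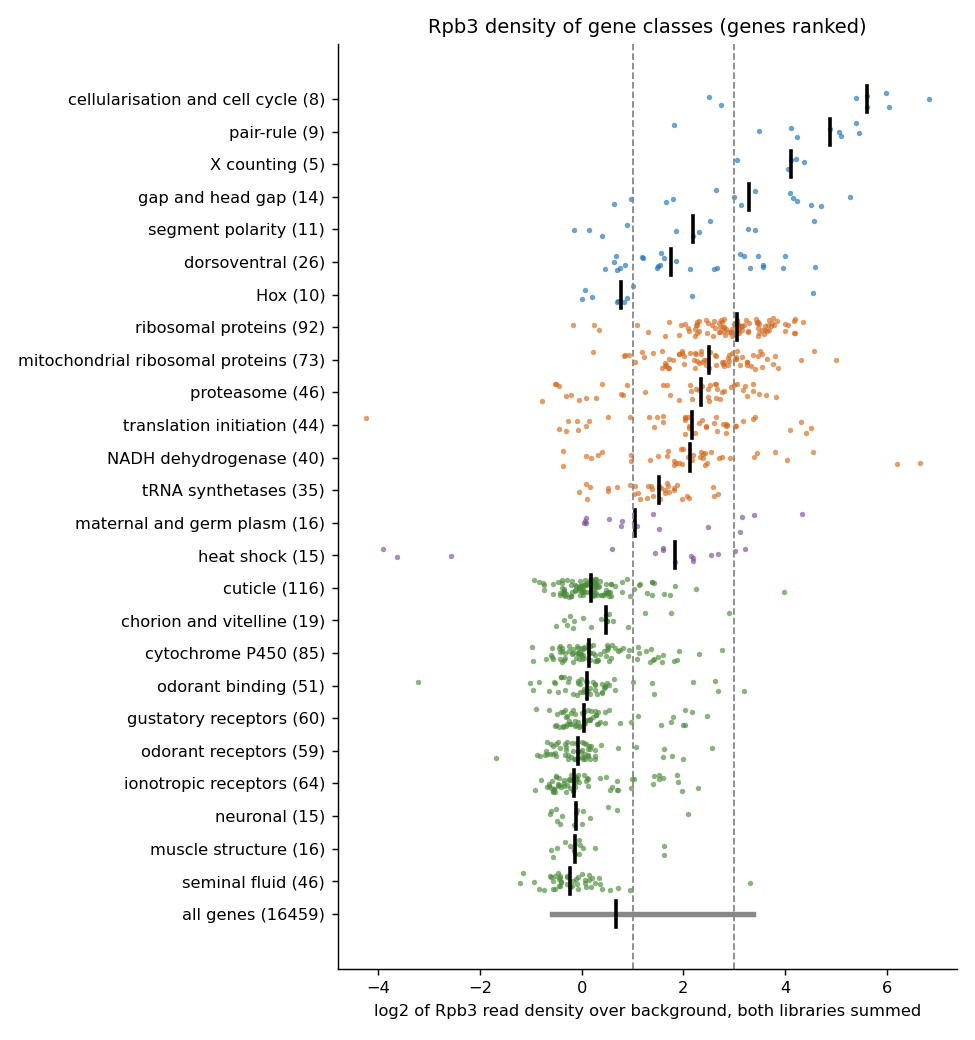
Log2 of Rpb3 density over background (horizontal axis) for each ranked member of 25 gene classes, with the number ranked in brackets, the class median as a black bar, and dashed lines at 2-fold and 8-fold. Colours mark embryonic patterning (blue), housekeeping (orange), maternal or heat shock (purple) and late tissue classes (green), and the grey bar spans the 5th to 95th percentile of all genes. Cellularisation and pair-rule genes lie farthest right and the late tissue classes gather around background.

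The choice of transcript set some of these calls, since a long span dilutes a dense stretch. The 19 patterning genes at background had a median span of 29142 nt, against 3122 nt for the 40 dense ones. twi, the mesoderm determinant, was at background (1.60-fold) over a transcript of 62952 nt, although its 2004-nt transcript at the same end had 16.1-fold in replicate 1 and 19.1-fold in replicate 2. The 60948 nt upstream of that transcript had 1.06-fold and 1.10-fold. Taking the densest transcript of each gene, 71 of 83 patterning genes were bound, and twi reached 17.2-fold. Among all genes at background by the rule, 151 had a transcript of at least 2-fold and 4 had one of at least 8-fold.

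Pairs of transcripts that share their end but not their start placed the reads within a gene. dpp, the main dorsal signal, was 4.38-fold over its 31452-nt transcript. Its 5087-nt transcript had 17.0-fold and 19.3-fold in replicates 1 and 2, and the 26365 nt before it had 1.66-fold and 1.79-fold. At Sxl, the 16174-nt transcript with the inner start had 17.9-fold and 18.7-fold, and the 5170 nt before it had 12.6-fold and 14.3-fold, so that both stretches were dense. At Antp the inner stretch had 2.00-fold and 2.26-fold and the 66388 nt before it 1.63-fold and 1.76-fold. Abd-B (1.49-fold and 1.86-fold for the inner stretch) and ftz-f1 (0.84-fold and 0.97-fold) had no stretch above 2-fold.

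The transcripts of hb do not share an end. The 3621-nt transcript of hb had 37.6-fold and 39.7-fold, against 20.7-fold and 21.8-fold for its 6334-nt transcript. The starts of cad lie under 500 nt apart, and its transcripts had between 8.25-fold and 9.37-fold. At zfh1 the longer transcript had 1.65-fold and 1.88-fold and the shorter one 1.42-fold and 1.49-fold. Over all 1996 genes with such a pair of at least 500 nt each, 1026 had a stretch of at least 2-fold. Of these, 629 had both stretches above it, 202 only the inner one and 195 only the upstream one.

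Housekeeping genes were bound widely, mostly at weak density. Of 330 ranked genes for ribosomes, proteasome, tRNA charging, the respiratory complex NADH dehydrogenase and translation initiation, 284 were bound (86.1%, against 43.1% of all genes) and 95 were dense (28.8%, against 7.84%). Their median was 5.45-fold.

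Of 92 cytoplasmic ribosomal protein genes, 89 were bound and 47 dense, with a median of 8.29-fold. RpL41 was the highest with 89.1 and 93.3 RPKM in replicates 1 and 2, followed by RpLP1 with 80.6 and 83.4 RPKM. The 3 at background were the paralogs RpL10Aa (1.27-fold), RpL22-like (1.17-fold) and RpS10a (0.89-fold), named after their values were seen. Mitochondrial ribosomal protein genes had 69 of 73 bound and 23 dense, with a median of 5.64-fold. mRpL16 was the highest of them with 147 and 140 RPKM and overlaps another gene, and mRpL24 the lowest at 1.17-fold.

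Of 46 proteasome genes, 33 were bound, with Prosalpha6 on top at 62.8 and 63.5 RPKM. Split by symbol after the values were seen, all 31 genes of the standard subunits were bound, between 2.36-fold for Rpt1 and 14.2-fold for Prosalpha6. Of 15 paralogs whose symbol ends in T or R, alone or followed by a digit (several known from testis), 13 were at background, with a median of 1.05-fold, and Prosalpha6T was the highest at 4.49-fold. Translation initiation genes showed a similar spread among paralogs. eIF4A, the RNA helicase of initiation, had 72.7 and 79.5 RPKM, and eIF4E5, a cap-binding paralog, led with 104 and 98.3 RPKM, whereas eIF4E3 (0.94-fold), eIF4E4 (0.95-fold), eIF4E6 (1.11-fold) and eIF4E7 (0.74-fold) were at background. eIF4B was nearly free of reads at 0.05-fold, far under the background. Whether reads can be placed on its sequence was not tested, so its value is not read as a lack of Pol II. No tRNA synthetase gene was dense, but 27 of 35 were weak, with a median of 2.86-fold.

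NADH dehydrogenase genes had 32 of 40 bound and a median of 4.37-fold, with an outlying top. ND-B17.2, a subunit gene, had 438 and 460 RPKM in replicates 1 and 2, 101-fold over background. It overlaps no gene, but its 3′ end faces that of Elba2, which was at 59.3-fold, across 21 nt. ND-19 had 334 and 322 RPKM and overlaps another gene. ND-B15 came next at 23.3-fold. Reads of adjacent dense genes at such distances were not separated here.

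DRE matches stood in 77 of 329 housekeeping promoters (23.4%, against 8.05% of all promoters), and TAGteam matches in 4 (1.22%, against 1.62%). The promoters of eIF4A and mRpS18B are shown because these were the densest housekeeping genes with a DRE match that overlap no other gene, with the same arm left out. They cover the same window, with TATCGATA in capitals, eIF4A at chr2L:5981564-5981783 on the plus strand and mRpS18B at chr2L:20097234-20097453 on the minus strand (dm6).
eIF4A: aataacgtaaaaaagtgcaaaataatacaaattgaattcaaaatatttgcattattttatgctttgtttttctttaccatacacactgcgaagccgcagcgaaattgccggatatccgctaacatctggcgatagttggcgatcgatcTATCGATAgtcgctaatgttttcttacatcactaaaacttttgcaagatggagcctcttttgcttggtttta
mRpS18B: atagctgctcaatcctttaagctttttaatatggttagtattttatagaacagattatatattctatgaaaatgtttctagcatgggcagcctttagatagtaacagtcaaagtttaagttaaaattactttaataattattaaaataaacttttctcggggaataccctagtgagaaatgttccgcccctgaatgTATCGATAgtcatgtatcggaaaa
The match began 52 bases before the annotated start of eIF4A, which was at 17.1-fold, and 4 bases before that of mRpS18B, which was at 14.6-fold.

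Maternally supplied genes and heat shock genes were mixed. Of 16 genes whose RNA is laid down by the mother or held in the germ plasm, 4 were dense, 5 weak and 7 at background, so that 9 of 16 were bound, against 43.1% of all genes. zld, which encodes Zelda, had 88.0 and 90.2 RPKM, 20.1-fold, and cad, a posterior determinant with a zygotic phase, had 39.9 and 39.6 RPKM. grk (10.5-fold) and pgc (8.65-fold) were dense over spans that overlap another gene. bcd (1.44-fold), osk (1.06-fold) and tor (1.05-fold), classic maternal genes, were at background, and nanos (2.03-fold) lay at the threshold. Of 15 heat shock genes, 11 were bound (73.3%, against 43.1% of all genes) and 2 were dense. Among the bound ones, Hsp22 and CG4456 were counted over the same span of 2034 nt, so their reads are the same (4.59-fold). Hsp83, a chaperone gene used without stress, had 42.7 and 39.4 RPKM and Hsp68 had 35.1 and 36.8 RPKM. The Hsp70 copies ranged between 6.46-fold for Hsp70Bb and 0.07-fold for Hsp70Bbb, but their sequences are near-identical and the reads of single copies are uncertain.

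Genes of later tissues gathered at background. Of 579 ranked genes in 14 classes of muscle, nerve, sensory, cuticle, egg shell, gland, gut, immune and detoxification genes, 504 were at background, 71 were weak and 4 were dense (0.691%, against 7.84% of all genes). Their median was 1.03-fold. Among the 399 that overlap no other gene, 33 were bound (8.27%, against 35.7% of all genes that overlap none).

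The sensory receptor families had medians near background. Odorant receptor genes had a median of 0.95-fold, ionotropic receptor genes 0.90-fold and gustatory receptor genes 1.03-fold, and of these 183 genes none was dense and 25 were bound (13.7%, against 43.1% of all genes). Or43b, the highest odorant receptor gene, had 26.1 and 26.2 RPKM and overlaps another gene. Gr59e, the highest gustatory receptor gene, had 23.2 and 26.0 RPKM and overlaps none. Muscle genes had a median of 0.91-fold, with Mhc, the muscle myosin heavy chain, at 4.41 and 4.21 RPKM and Act88F, the flight muscle actin, at 4.07 and 3.97 RPKM. Tm1, a tropomyosin gene also used outside muscle, was at 3.07-fold.

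The few late genes above background were scattered over the classes. Cpr60D, a cuticle protein gene, had 64.2 and 76.9 RPKM, 15.9-fold. Lsp1beta, a larval serum protein gene, had 45.0 and 44.2 RPKM, and Lsp1alpha, its X-linked relative, was at 0.65-fold. Acp95EF (9.97-fold, seminal fluid) and Obp44a (9.15-fold, odorant binding) each overlap another gene. elav, a marker of neurons, had 17.9 and 20.1 RPKM and overlaps 2 genes, whereas the synaptic genes brp (1.12-fold) and nSyb (1.44-fold) were at background. Of the photoreceptor markers, ninaE was at 2.24-fold and Rh4, which overlaps 3 genes, at 4.12-fold. Drs, an antimicrobial peptide gene of 387 nt, had 23.4 and 33.5 RPKM. No gut protease gene of the Jonah family was bound, and the highest, Jon99Fi, was at 1.76-fold.

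The same markers checked the labelled stage. Of the blastoderm markers, eve, ftz, Kr, slam, nullo, sna and zen were bound, between 5.68-fold for nullo and 114-fold for slam. twi was at background by the rule and bound only over its shorter transcripts. Of the later cell markers given above, elav, ninaE and Rh4 were bound, and Mhc, Act88F, brp and nSyb were at background. Of the follicle cell markers, Cp15 was at 1.41-fold, Cp36 at 1.02-fold, Vm26Aa at 1.45-fold and Yp1 at 0.82-fold, and Cp18 was weak at 10.2 and 10.8 RPKM. The highest egg shell gene of the whole list was Vm34Ca, a vitelline membrane gene, with 16.4 and 13.5 RPKM, 3.36-fold. The chorion and vitelline list also took in Cp190 (7.49-fold) and Cp110, which encode centrosomal proteins, and the P450 list took in the cyclophilin genes Cyp1 and Cyp40. Without these 4 genes, 72 of 575 late genes were bound.

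Small nuclear RNA genes, most of whose products build the spliceosome, were all bound where they were ranked. Of 31 with a counted transcript, 23 were ranked. Of these 23, 19 were dense, and the median was 65.9-fold. The 5 U1 genes led, between 101-fold and 162-fold, with snRNA:U1:95Ca at 688 and 755 RPKM in replicates 1 and 2. The 6 U2 genes had a median of 77.6-fold, the 3 U4 genes 91.2-fold and the 5 U5 genes 44.2-fold. Single genes fell far below these medians, with snRNA:U2:38ABb at 15.1-fold and snRNA:U4:25F at 5.87-fold. Of the genes of the minor spliceosome, U4atac was at 14.1-fold, U12 at 4.89-fold and U11 at 2.37-fold. The copies of each family are similar in sequence. snRNA:7SKa, which encodes the RNA that holds back elongation factor P-TEFb, was at 6.03-fold. Pol II copies most but not all snRNA genes, and reads over this span do not show that Pol II copies snRNA:7SKa. Spans of the ranked snRNA genes are under 450 nt, so reads that reach past their ends weigh on the density. snRNA:U1:95Ca rested on 1356 and 1031 reads.

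Of 147 ranked snoRNA genes, 143 were bound and 71 dense, but 138 of them overlap another gene and share its reads. Among the 9 that overlap none, 3 close neighbours on the same strand of arm 2R led. The gene FBgn0263459 had 607 and 678 RPKM, the gene FBgn0263472 570 and 622 RPKM, and snoRNA:Psi28S-1153 507 and 549 RPKM. They lie between bases 13557539 and 13558055, and reads of genes at such distances were not separated. Long non-coding RNA genes that overlap no other gene were mostly at background, with 130 of 1208 bound (10.8%, against 35.7% of all genes that overlap none). lncRNA:CR45677, beside trbl, was the highest of them at 77.0-fold, and lncRNA:CR44772 (684 and 622 RPKM) was the highest that overlaps a gene. lncRNA:roX1, an RNA of the dosage compensation complex, had 146 and 144 RPKM, against 13.0 and 12.6 RPKM for its partner lncRNA:roX2. Of 111 replication histone genes in the annotation, 20 were ranked and 9 of these were bound (45%, against 43.1% of all genes), and since the copies repeat one sequence no single value is certain. Only 3 of 312 tRNA genes, most of which are shorter than the length minimum, were ranked. The 37 mitochondrial genes counted 0 reads in both libraries, although nuclear background held 56.0 and 35.2 reads per kb. This 0 is therefore not read as a measure of Pol II, and why these genes held no reads was not tested.

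Density depended on the length of the counted span. Of genes of 2000 up to 5000 nt, 52.8% were bound, as were 31.7% of genes of 500 up to 1000 nt and 15.8% of genes of 50000 nt or more. A read that reaches past the end of a span counts in full, which raises short spans most and was not corrected. The dense share was highest in genes under 500 nt, at 12.1%, which include the snRNA genes, and lowest in those of 50000 nt or more, at 1.26%. The longest genes nevertheless included a few dense ones, led by lola, a zinc finger gene, at 12.4-fold. Of the 100 densest protein-coding genes, 35 had a single exon, against 15.0% of all protein-coding genes. Exon number goes with span, and among protein-coding genes of like span the dense shares were close. At 500 up to 1000 nt, 10.4% of genes with 1 exon and 10.9% of those with more were dense. At 1000 up to 2000 nt the shares were 10.5% and 10.1%, and at 2000 up to 5000 nt 8.42% and 6.21%. Among dense patterning genes 10 of 40 had a single exon, and among those at background none of 19 did. Their median spans also differed, at 3122 and 29142 nt.

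**Figure D5:**
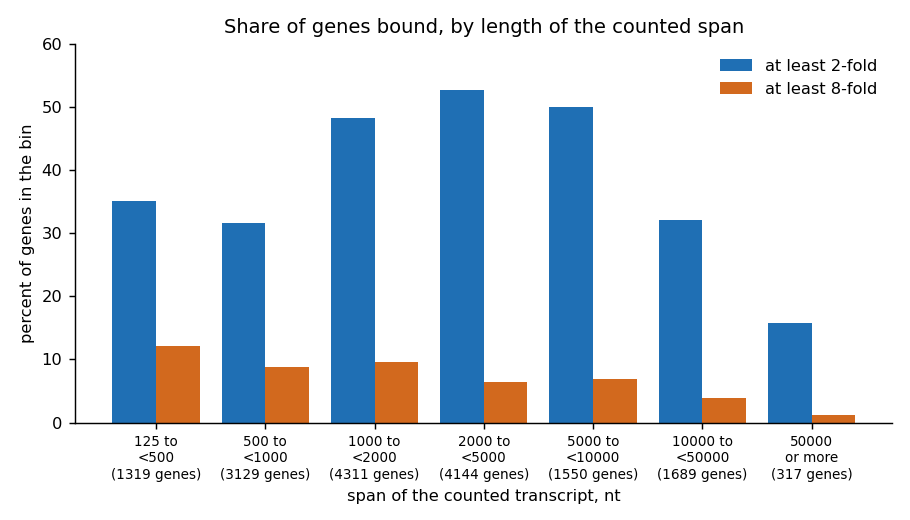
Percent of genes bound at 2-fold or more (blue) and at 8-fold or more (orange) by span of the counted transcript in nt (horizontal axis), with the number of genes in each bin. The bound share is highest at 2000 up to 5000 nt (52.8%) and lowest at 50000 nt or more (15.8%).

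Overlap and neighbours moved with density too. Of the 7923 genes that overlap another gene 51.0% were bound, against 35.7% of the 8536 that overlap none, and strand was ignored in counting. Among genes that overlap none, the nearest gene was itself dense for 41.3% of 494 dense genes, against 6.88% of 8526 genes in all. The median distance to that gene was 160 nt for dense genes, 153 nt for weak genes and 450 nt for genes at background. Some of the densest genes stood in such neighbourhoods. CG18132 (61.4-fold) and halo lie 54 nt apart, CG10035 (54.9-fold) and GstD8 (46.7-fold) 53 nt apart, and Sry-delta lies 342 nt from RpL32 (16.1-fold) and 269 nt from the span of Sry-beta (42.1-fold). CG13428, 195 nt from CG13427, was at 2.74-fold, so that a close dense neighbour did not always go with a dense gene. DIP-epsilon, a neuronal adhesion gene 486 nt from slam, was at 2.72-fold over a long span (bases 6377771 to 6411326 of arm 2L). Such a span dilutes a dense stretch, so the value does not tell how dense its end beside slam was.

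The X stood apart in its background. Fewer X-linked genes were dense, 103 of 2494 (4.13%), against 8.58% of the 13785 genes on the 4 large autosome arms. The most common density of X-linked genes over 2000 nt was 3.29 RPKM in replicate 1 and 3.14 RPKM in replicate 2, which is 0.707 and 0.742 of the background of all genes. A mixture of both sexes holds fewer copies of the X than of each autosome, and the part of copy number in these values was not tested. Counted over the background of the X itself, 209 X-linked genes were dense (8.38%). bnb was the densest gene of the X, at 396 and 394 RPKM over a span that overlaps another gene. On the Y chromosome 54 of 113 genes were ranked, with a median of 0.41-fold, and the pseudogene CR46151 stood apart there with 149 and 122 RPKM from 492 and 278 reads.

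Reads above background were set beside the share of sequence that held them. Dense genes are defined by density, so their excess of such reads over their share of span follows from the rule. The 1290 dense genes covered 3.78% of the summed spans and held 41.8% of the reads above background in replicate 1 and 39.8% in replicate 2. The weak genes covered 26.2% of the spans and held 60.2% and 58.8%. The 100 densest genes held 7.19% and 6.77%, and the 10 densest, mostly snRNA and snoRNA genes, 0.384% and 0.371%. Genes at background held −1.91% and 1.36%, that is, they summed to about the background itself. Since overlapping genes count the same reads more than once, these shares are of counts and not of separate reads.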

How the data were processed

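Rpb3 ChIP-seq libraries of stage 5 Ctrl embryos (2 replicates, called biological in the study's methods) were used, and samples were grouped by title. The deposited values are raw counts of reads over annotated transcripts. For these, the authors mapped reads to dm6, removed duplicates, kept proper pairs and counted reads over whole transcript spans with featureCounts, ignoring strand, with a mapping quality minimum of 3 and with a read added to every transcript it overlaps. The labels name featureCounts and edgeR without versions. Nested genes, antisense genes and isoforms therefore share reads, and reads of near-identical copies are lost or misplaced. The count columns of the DomKD libraries in the same table were not used here.

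Identifiers of 34516 of 34793 transcripts were found in the Ensembl BDGP6 annotation (dm6 coordinates), and 34413 had the same span. Filters removed 750 transcripts under 125 nt and 443 with 10 reads or fewer, leaving 33600, of which 248 were unmatched. The transcript with the highest mean count stood for its gene. Background was the mode of log2 density over genes above 2000 nt (Gaussian kernel, bandwidth 0.1). The same steps were run on simulated counts, with folds set well away from the thresholds and no reads shared between genes. That run checks the arithmetic and not the effects of overlap, choice of transcript or read placement. Promoters were read from the RefSeq dm6 sequence at the annotated start of the counted transcript. Python 3.11.15, numpy 2.4.6, pandas 2.3.3, scipy 1.17.1 and matplotlib 3.10.9 were used.

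Classes and lists were chosen with earlier results of these data known. Lists were matched by symbol or by its pattern, and 6 older symbols were updated. Genes named one by one are the 20 densest protein-coding genes that overlap none, class extremes, bound members of the patterning classes, biotype leaders, genes with several starts, markers and threshold neighbours. Any other was named after its values were seen. SD values are over 2 libraries and cover little more than counting and preparation error.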

Additional observations from a re-analysis of the deposited data

How the results depend on the processing

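The main counts were 1290 dense, 5801 weak and 9368 background genes, with 64 patterning, 284 housekeeping and 75 late tissue genes bound. Leaving out each library in turn gave 1157 to 1444 dense, 5722 to 5883 weak and 9132 to 9580 background genes, and 63 to 65 patterning, 279 to 287 housekeeping and 71 to 76 late tissue genes bound. With the densest, longest or shortest transcript of each gene, with other backgrounds and with no filter on reads, these counts stayed within 1.5 times the main ones. Among the 8536 genes that overlap no other, by construction fewer, 494 were dense, 2554 weak and 5488 at background, and 40 patterning, 128 housekeeping and 33 late tissue genes were bound. There the 100 densest genes held 14.6% of the reads above background (mean of both libraries), against 6.98% over all genes. With over 100 summed reads required, 6110 genes were at background. With thresholds of 3 and 12, 605 genes were dense and 42 late tissue genes bound. For single classes, 39 of 341 counts moved by over 1.5 times, mostly where overlapping genes were left out or few genes were bound. Over the background of the X, chosen after seeing the data, 209 X-linked genes were dense, against 103. Starts of the densest transcripts, also chosen after seeing the data, gave 99 dense promoters with TAGteam, against 84. Scaled to reads in all transcripts, background was 1.38 and 1.25 RPKM and folds did not change. No paired analysis was possible because only 1 group was used. Short genes have few reads (the median gene had 236 and 162), and values of single short genes are the least certain. Densities of short genes are also raised by reads that reach past the ends of the span.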
